A study of Mus musculus with 8 samples.

Results

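The genes described here are 38 genes of DNA repair and of the damage checkpoint, chosen by gene symbol from the 24505 genes listed for each library. By role they divide into 14 genes of homologous recombination, 10 Fanconi anaemia genes, 1 mismatch repair gene, 4 genes of single-strand break repair, 3 genes of end joining and 6 genes of damage signalling. All 38 passed the filter on low values, and all were measured in all 8 libraries. The libraries came from a mouse embryonic stem cell line with a conditional Ino80 allele, labelled INO80 CKO. Ino80 encodes the ATPase of a chromatin remodelling complex. The 4 groups of 2 libraries each were naive cells labelled KO, naive cells labelled WT, primed cells labelled KO and primed cells labelled WT. Naive cells were kept in 2iL, which is N2B27 medium with the MEK inhibitor PD0325901, the GSK3 inhibitor CHIR99021 and LIF. Primed cells were kept in FAX, which is N2B27 medium with FGF-2, Activin A and the tankyrase inhibitor XAV-939. Per the labels' protocols, deletion was induced with 100 nM 4-OHT over 2 days and cells were used 2 days later; the labels carry the same protocol on KO and WT libraries and do not say whether WT cells received 4-OHT or carried the same alleles. All libraries come from 1 named line. The labels do not name separate cultures, so the p-values rest on the spread of paired libraries that may differ only technically.

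Cells repair broken DNA by several routes. Homologous recombination copies the intact sister chromatid, end joining religates the ends directly, and the Fanconi pathway unhooks crosslinks between strands and hands the break on to recombination. Single-strand breaks are sensed by PARP enzymes and sealed by XRCC1 with DNA ligase III, mismatch repair removes replication errors, and the kinases ATM, ATR and DNA-PKcs signal damage to the cell cycle. Embryonic stem cells cycle fast, spend most of the cycle in S phase and are known to rely strongly on homologous recombination, and several of these genes are known E2F targets.

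The values are RPKM, which are per gene length, and the authors had scaled them further by a method that no label or note states. Naive and primed libraries appeared to have been scaled apart, so levels were tested only within a state. Changes are KO minus WT in log2(RPKM + 1), with a standard error from limma over all 8 libraries, and a gene is called where the Benjamini-Hochberg adjusted p over all 13428 genes tested was under 0.05. The targeted gene was a weak check of the labels. Ino80 stood at 15.9 and 15.1 RPKM in the naive libraries labelled KO, against 17.0 and 14.5 RPKM in naive WT, which overlap (-0.02 ± 0.18, limma adjusted p = 0.975). In the primed libraries Ino80 stood at 9.12 and 8.74 RPKM in KO, against 15.9 and 20.3 RPKM in WT (-0.93 ± 0.18, limma adjusted p = 2.0e-06), or -0.26 after quantile normalization. The RPKM of the whole gene also holds exons outside a deleted stretch, so KO is used below as the name in the labels, and how complete the deletion was cannot be read from these values.

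Whole libraries were shifted against each other, and every count below has to be read against that. In primed cells the median change of all genes tested was -0.53, and 59.3% of them were called lower and 4.16% higher. Quantile normalization, which gives all libraries the same distribution, moved that median to 0.03. The value after quantile normalization is therefore given beside the deposited one, as the change relative to other genes. Among WT libraries, primed replicate 2 lay above replicate 1 in 38 of 38 members (median difference 0.32, as for all genes), and naive replicate 2 lay below replicate 1 in 32 of 38 (median -0.21, against -0.30 for all genes). The pluripotency markers Pou5f1, Nanog, Sox2, Sall4 and Utf1 summed to 1520 to 1530 RPKM in naive KO, against 1330 to 1460 in naive WT, and to 953 to 1060 RPKM in primed KO, against 973 to 1100 in primed WT. The naive-state markers Zfp42, Klf4, Esrrb, Tfcp2l1 and Tbx3 summed to 1.91 to 2.03 RPKM in primed KO, against 6.75 to 9.48 in primed WT, and 4 of the 5 were called lower there. Fibroblast markers summed to 14.6 to 15.4 RPKM in primed KO, against 33.1 to 44.9 in primed WT, and mesoderm markers to 41.2 to 44.9 RPKM in primed KO, against 5.03 to 6.83 in primed WT. Of the 5 mesoderm markers, Mixl1 and Mesp1 were under 1 RPKM in every primed library, and of 3 tested 2 were called higher and 1 lower. In naive libraries the neural markers summed to 83.4 to 86.3 RPKM in KO, against 44.3 to 50.5 in WT. Of the 5 neural markers, Pax6 and Neurog2 were under 1 RPKM in every naive library, and of 4 tested 2 were called higher and none lower. The part of these markers' shifts in the changes below was not tested. In bulk RNA, fewer cells of a type and less RNA per cell cannot be told apart.

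In outline, 1 member, Parp2, fell in naive cells labelled KO, and 29 members fell and 2 rose in primed cells labelled KO, beside 63.4% of all genes called in either direction in primed and 11.9% in naive cells. Relative to other genes, the primed changes went both ways. The largest falls, of Parp2, Prkdc, Rad51c, Fancd2, Fance and Xrcc6, were present under every normalization tried. Msh6 was higher in primed KO libraries under every one, and Brca1, Atm and Nbn, which as deposited did not pass the test, were higher after quantile normalization.

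**Figure D1:**
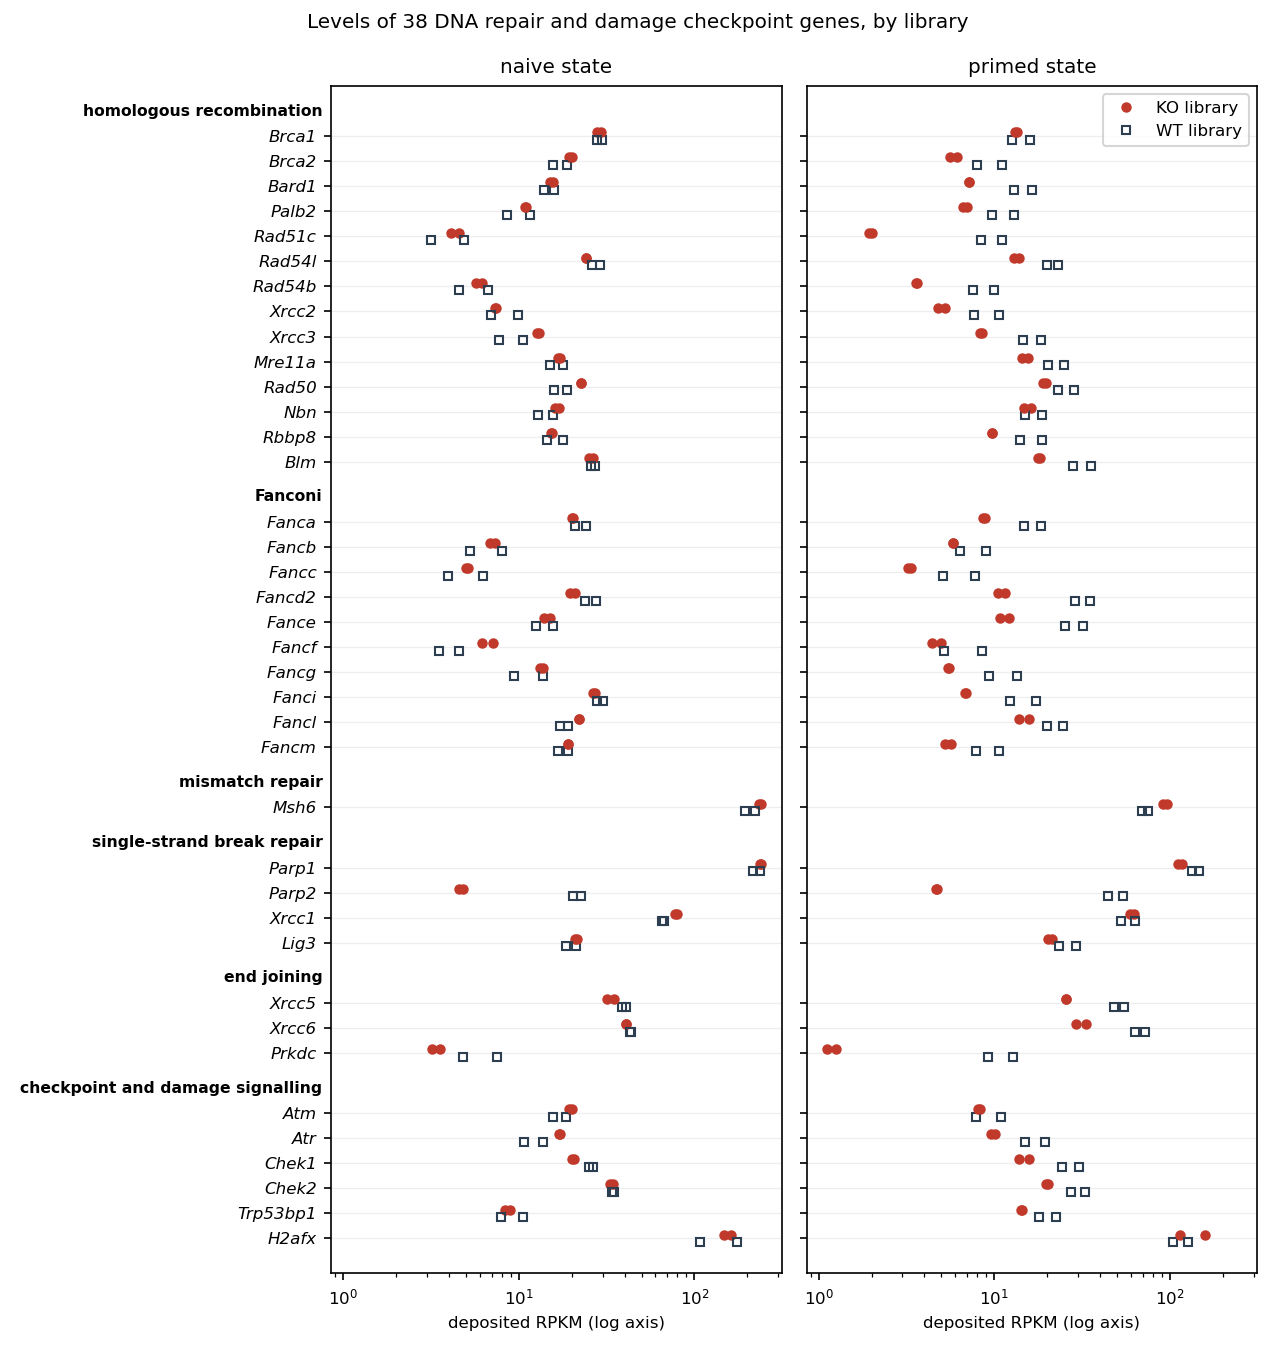
Level of all 38 members in each library, as RPKM on a log axis, with naive libraries on the left and primed libraries on the right, KO libraries as filled circles, WT libraries as open squares and members grouped by role. In the primed panel the KO points of Parp2, Prkdc and Rad51c stand far left of the WT points, while those of Msh6 stand to the right.

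The levels of the members spanned a wide range in both states. In naive cells the highest levels were those of Parp1, at 238 and 240 RPKM in KO, against 215 and 237 RPKM in WT, and of Msh6. The other members, apart from H2afx and Xrcc1, lay under 50 RPKM in every library of both states except Xrcc5, Xrcc6 and Parp2 in primed WT libraries. The lowest naive mean was that of Prkdc in KO libraries (3.38 ± 0.233 RPKM, SD, n = 2) and that of Rad51c in WT libraries (3.99 ± 1.20 RPKM, SD, n = 2), the second within 1 SD of Fancf. In primed KO libraries the lowest was Prkdc, at 1.12 and 1.25 RPKM, next to Rad51c at 1.94 and 2.02 RPKM.

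Single-strand break repair held the largest change of the list. Parp2, an enzyme that marks strand breaks with poly(ADP-ribose), starts close to Rpph1, the RNA component of RNase P, which is transcribed the other way. The promoter window of Parp2 is shown because reads of the 2 genes could be confused. It runs from 250 bases before the start to 50 after it, in RefSeq on GRCm38.p6, chr14:50807666-50807965, plus strand. The capitals mark the 106 bases that lie inside Rpph1, and 144 bases separate Rpph1 from the Parp2 start.

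Parp2: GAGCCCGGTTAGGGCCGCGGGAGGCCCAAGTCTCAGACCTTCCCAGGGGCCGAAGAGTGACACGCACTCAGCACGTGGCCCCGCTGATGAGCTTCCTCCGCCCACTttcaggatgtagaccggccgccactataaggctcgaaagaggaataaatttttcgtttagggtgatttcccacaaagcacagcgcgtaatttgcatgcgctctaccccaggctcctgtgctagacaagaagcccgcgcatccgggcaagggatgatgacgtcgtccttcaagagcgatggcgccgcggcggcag

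In naive libraries Parp2 stood at 4.79 and 4.56 RPKM in KO, against 22.6 and 20.4 RPKM in WT (-1.99 ± 0.19, limma adjusted p = 6.3e-22; -2.0 after quantile normalization). Only 6 of the 13428 genes tested had a more negative naive change. In primed libraries it stood at 4.75 and 4.64 RPKM in KO, against 44.4 and 54.3 RPKM in WT (-3.14 ± 0.19, limma adjusted p = 7.4e-57; -2.59 after quantile normalization). In each state both KO libraries lay far under both WT libraries, and the difference of the change between the states, -1.15 ± 0.27, passed the test (limma adjusted p = 1.7e-04). The mean was 4.6-fold lower in naive KO and 10.5-fold lower in primed KO than in WT. Rpph1 stood at 4.64 and 2.90 RPKM in naive KO, against 10.7 and 5.76 RPKM in naive WT (-0.92 ± 0.27, limma adjusted p = 0.0097), and at 3.01 and 3.85 RPKM in primed KO, against 3.59 and 5.54 RPKM in primed WT, which overlap (-0.31 ± 0.27, limma adjusted p = 0.318). How reads between the 2 genes were assigned is not given in the labels or notes used here, so part of the Parp2 value may belong to Rpph1.

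The other single-strand break genes moved little. Parp1, the main poly(ADP-ribose) polymerase, stood in primed libraries at 117 and 111 RPKM in KO, against 134 and 146 RPKM in WT (-0.29 ± 0.08, limma adjusted p = 0.00104), and was at -0.09 after quantile normalization but at 0.40 with median centring, so its direction depends on the scaling. The Parp1 call ended without primed KO replicate 2 (limma adjusted p = 0.0564). Xrcc1, the scaffold of the pathway, stood at 62.7 and 59.2 RPKM in primed KO, against 52.6 and 63.5 RPKM in primed WT, and Lig3, its ligase, at 21.2 and 20.2 RPKM in primed KO, against 23.4 and 29.1 RPKM in primed WT. Neither passed the test as deposited (0.08 and -0.32), and both were called higher after quantile normalization (0.46 and 0.24).

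All 3 end joining members fell in primed cells, beside 59.3% of all genes, and all 3 were called lower after quantile normalization too, beside 34.6%. Of 7 other end joining genes tested, 2 were lower and none higher in primed cells as deposited, and 1 was lower and 5 higher after quantile normalization. Prkdc encodes DNA-PKcs, the kinase that Ku recruits to broken ends, and Xrcc5 and Xrcc6 encode the Ku80 and Ku70 subunits. Prkdc stood at 1.12 and 1.25 RPKM in primed KO, against 9.17 and 12.8 RPKM in primed WT (-2.44 ± 0.28, limma adjusted p = 3.0e-17; -1.71 after quantile normalization). Xrcc6 stood at 33.1 and 29.3 RPKM in primed KO, against 63.3 and 72.0 RPKM in primed WT (-1.09 ± 0.12, limma adjusted p = 1.8e-19; -0.67 after quantile normalization). Xrcc5 stood at 25.6 and 25.6 RPKM in primed KO, against 47.9 and 54.7 RPKM in primed WT (-0.97 ± 0.12, limma adjusted p = 7.3e-14; -0.50 after quantile normalization). The groups were apart for all 3 genes, and 2 of them stayed called with median centring, the exception being Xrcc5 (-0.28, limma adjusted p = 0.091). In naive cells Prkdc stood at 3.55 and 3.22 RPKM in KO, against 7.48 and 4.81 RPKM in WT, apart from each other but not past the test (-0.68 ± 0.28, limma adjusted p = 0.091); after quantile normalization the change was -0.73 and passed (limma adjusted p = 2.5e-05). The naive values were 31.9 and 34.9 RPKM in KO, against 38.9 and 40.7 RPKM in WT for Xrcc5, and 40.6 and 40.9 RPKM in KO, against 43.8 and 42.9 RPKM in WT for Xrcc6. Neither passed as deposited, and both were called lower after quantile normalization (-0.28 and -0.12). The changes of all 3 genes were more negative in primed than in naive cells as deposited and after quantile normalization, with differences of -1.75, -1.0 and -0.72 as deposited for Prkdc, Xrcc6 and Xrcc5 (limma adjusted p = 6.2e-05, 2.6e-08 and 2.4e-04), although with median centring the differences for Xrcc6 and Xrcc5 were -0.25 and 0.03 and did not pass (limma adjusted p = 0.262 and 0.918).

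Prkdc starts head to head with Mcm4, a subunit of the replicative helicase, and the partner did not follow it. Mcm4 stood at 96.9 and 92.9 RPKM in primed KO, against 88.5 and 97.8 RPKM in primed WT, which overlap (0.03 ± 0.09, limma adjusted p = 0.809), and at 113 and 112 RPKM in naive KO, against 109 and 120 RPKM in naive WT.

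**Figure D2:**
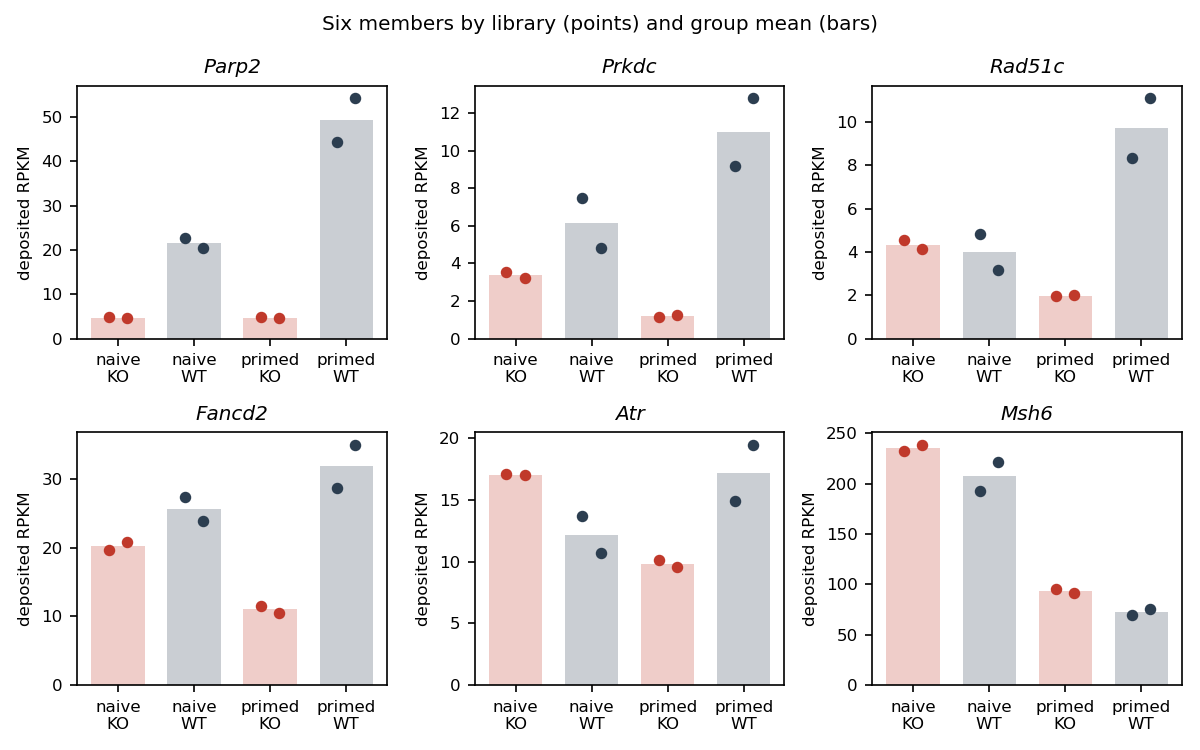
RPKM of 6 members in each of the 8 libraries, in 1 panel per gene with its own linear axis from 0, KO left of WT within each state; points are libraries and bars are the means of 2. Parp2 was low in KO libraries of both states, Prkdc, Rad51c and Fancd2 were low in primed KO libraries, and Msh6 was the one of the 6 that was higher in primed KO than in primed WT libraries, with Atr above WT in naive and below WT in primed KO libraries.

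In homologous recombination, 12 of 14 members fell in primed KO libraries and none rose, beside 59.3% of all genes lower; after quantile normalization 5 were lower and 4 higher, beside 34.6% and 39.4% of all genes. Of 13 other homologous recombination genes tested, 4 were lower and none higher in primed cells as deposited. After quantile normalization 2 of those 13 were lower and 10 higher. No member of this role passed the test in naive cells. Rad51c, which acts in strand invasion, fell most. A promoter window of Rad51c is shown because it holds an E2F motif, TTTCGCGC, in capitals (GRCm38.p6, chr11:87404457-87404756, minus strand, printed in the direction of the gene). It was picked as the RefSeq window of the gene nearest the coding exons, and any other window of Rad51c is not shown. The motif TTTCGCGC was found on either strand in 0.323% of 32851 RefSeq promoter windows. That share makes no allowance for the choice of window. The E2F search covered TTTCGCGC, TTTGGCGC and TTTCCCGC, and 1.84% of those windows held any of them.

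Rad51c: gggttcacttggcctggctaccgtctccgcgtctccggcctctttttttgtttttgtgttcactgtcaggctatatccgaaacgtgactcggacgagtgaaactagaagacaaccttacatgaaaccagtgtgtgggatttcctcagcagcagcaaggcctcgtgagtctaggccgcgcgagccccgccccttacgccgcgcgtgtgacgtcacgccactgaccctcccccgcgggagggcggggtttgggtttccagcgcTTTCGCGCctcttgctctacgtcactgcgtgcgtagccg

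Rad51c stood at 1.94 and 2.02 RPKM in primed KO, against 8.35 and 11.1 RPKM in primed WT (-1.83 ± 0.28, limma adjusted p = 3.0e-10; -1.07 after quantile normalization). In naive libraries it stood at 4.54 and 4.11 RPKM in KO, against 4.84 and 3.14 RPKM in WT, which overlap (0.11 ± 0.28, limma adjusted p = 0.885). The difference between the states was -1.95 ± 0.39 (limma adjusted p = 7.5e-06), the most negative among the members, and -1.14 after quantile normalization. Its head-to-head neighbour Tex14, a gene of germ cell bridges, was at 10.8 and 10.8 RPKM in naive KO, against 8.10 and 5.88 RPKM in naive WT, and under 0.14 RPKM in every primed library.

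The next 3 by size were Rad54b, a DNA translocase, Bard1, the partner of BRCA1, and Xrcc3, which acts with Rad51c. Rad54b stood at 3.62 and 3.57 RPKM in primed KO, against 7.56 and 10.0 RPKM in primed WT (-1.08 ± 0.26, -0.31 after quantile normalization). Bard1 stood at 7.15 and 7.16 RPKM in primed KO, against 13.0 and 16.5 RPKM in primed WT (-0.94 ± 0.20, -0.25 after quantile normalization). Xrcc3 stood at 8.55 and 8.26 RPKM in primed KO, against 14.6 and 18.5 RPKM in primed WT (-0.89 ± 0.20, -0.20 after quantile normalization). KO libraries lay under both WT libraries in each case, and the 3 genes stayed called lower under each of the 3 normalizations. In naive cells Xrcc3 went the other way, at 13.0 and 12.7 RPKM in KO, against 10.6 and 7.74 RPKM in WT, not past the test as deposited (0.46 ± 0.20, limma adjusted p = 0.138) but called higher under each normalization. Its difference between the states was -1.35 ± 0.29 (limma adjusted p = 3.0e-05).

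The tumour suppressor Brca1 and its partners did not move together. Brca1, which directs broken ends into recombination, stood at 13.5 and 13.2 RPKM in primed KO, against 12.6 and 16.0 RPKM in primed WT, which overlap (-0.08 ± 0.16, limma adjusted p = 0.671), and its change was 0.58 after quantile normalization. Brca2, a mediator of strand invasion, stood at 6.12 and 5.61 RPKM in primed KO, against 7.93 and 11.0 RPKM in primed WT (-0.59 ± 0.20, limma adjusted p = 0.0066), but its direction turned to 0.15 after quantile normalization and its call ended without primed KO replicate 2 (limma adjusted p = 0.106) and without primed WT replicate 2, where it was -0.38 (limma adjusted p = 0.0754). In naive cells Brca1 was at 27.9 and 29.3 RPKM in KO, against 29.7 and 27.8 RPKM in WT, and Brca2 at 19.4 and 20.2 RPKM in KO, against 18.8 and 15.6 RPKM in WT, and neither passed. Thus Bard1 fell and Brca1 did not pass in primed libraries, while relative to other genes Bard1 was lower and Brca1 higher.

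The sensor of broken ends is the MRN complex of Mre11a, Rad50 and Nbn. In primed libraries Mre11a and Rad50 were called lower as deposited (-0.55 and -0.38) and Nbn was not (-0.10, limma adjusted p = 0.621), but after quantile normalization the changes were 0.06, 0.18 and 0.54, so no subunit was lower relative to other genes. The Mre11a call ended without primed KO replicate 2 (limma adjusted p = 0.0713). The Rad50 call ended without either naive KO library, either primed KO library or primed WT replicate 2 (limma adjusted p = 0.0659 to 0.182), and its change was -0.24 without the last of these. The remaining 5 members of this role, Palb2, which links BRCA1 to BRCA2, Rad54l, Xrcc2, Rbbp8, which starts end resection, and the helicase gene Blm, were called lower in primed KO libraries by -0.64 to -0.79. After quantile normalization 1 of the 5, Blm, was still called lower (-0.24), and Palb2 and Xrcc2 were at 0.07 and 0.01. The Palb2 and Xrcc2 calls each ended without primed KO replicate 1 or 2 or primed WT replicate 2.

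Of the 10 Fanconi genes, 8 fell in primed KO libraries and none rose, beside 59.3% of all genes lower; after quantile normalization 5 were lower and 3 higher, beside 34.6% and 39.4% of all genes. Of 6 other Fanconi genes tested, 3 were lower and none higher in primed cells as deposited. After quantile normalization 1 of those 6 was lower and 4 higher. Fancd2 is the subunit that the core complex ubiquitinates at a crosslink. It stood at 11.5 and 10.5 RPKM in primed KO, against 28.7 and 35.0 RPKM in primed WT (-1.45 ± 0.16, limma adjusted p = 2.5e-19; -0.87 after quantile normalization). Fanci, its partner in the same clamp, stood at 6.82 and 6.88 RPKM in primed KO, against 12.3 and 17.2 RPKM in primed WT (-0.99 ± 0.17, -0.29 after quantile normalization). For both genes each KO library was below each WT library.

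A pair of core complex genes fell under each normalization. Fance, which binds Fancd2, stood at 12.1 and 10.8 RPKM in primed KO, against 25.4 and 32.1 RPKM in primed WT (-1.25 ± 0.17, limma adjusted p = 6.7e-12; -0.66 after quantile normalization). Fancg, an adaptor of the core, stood at 5.52 and 5.45 RPKM in primed KO, against 9.35 and 13.5 RPKM in primed WT (-0.92 ± 0.22, -0.20 after quantile normalization). Of the other core genes, Fancb and Fancf did not pass as deposited (-0.33 and -0.43) and were called higher after quantile normalization (0.42 and 0.35). Fancc, Fancl and Fancm were called lower as deposited (-0.77, -0.56 and -0.66) with 0.02, 0.06 and 0.09 after quantile normalization. The calls of all 3 ended without primed KO replicate 2 (limma adjusted p = 0.0656 to 0.121). That of Fancc also ended without primed KO replicate 1 and without primed WT replicate 2, where its change was -0.51 (limma adjusted p = 0.162). Fanca was lower both as deposited (-0.85) and after quantile normalization (-0.16), but not past the test with median centring (-0.15).

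In naive cells no Fanconi gene passed the test. Fancd2 stood at 19.6 and 20.8 RPKM in naive KO, against 27.4 and 23.9 RPKM in naive WT, with no overlap (-0.33 ± 0.16, limma adjusted p = 0.171; -0.37 and called lower after quantile normalization). Fancf was on the opposite side, at 7.08 and 6.14 RPKM in naive KO, against 4.58 and 3.51 RPKM in naive WT (0.60 ± 0.27, limma adjusted p = 0.137; 0.55 and called higher after quantile normalization). Fancf had the highest naive change among the 38 members. The changes of Fancd2 and Fance were more negative in primed than in naive cells, where Fance was at 0.05, with differences of -1.12 and -1.30 as deposited and -0.50 and -0.63 after quantile normalization.

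Msh6, a mismatch recognition protein, was one of 2 members called higher in primed KO libraries. Its promoter window is shown because it also holds an E2F motif, TTTCCCGC, in capitals (GRCm38.p6, chr17:87974800-87975099, plus strand). Of the RefSeq promoter windows, 1.07% hold this motif on either strand, and 1.84% hold any of the E2F motifs searched for. In both the Msh6 window and the Rad51c window picked above, the motif lies just after the start that the window was built on. The 2 members moved in opposite directions.

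Msh6: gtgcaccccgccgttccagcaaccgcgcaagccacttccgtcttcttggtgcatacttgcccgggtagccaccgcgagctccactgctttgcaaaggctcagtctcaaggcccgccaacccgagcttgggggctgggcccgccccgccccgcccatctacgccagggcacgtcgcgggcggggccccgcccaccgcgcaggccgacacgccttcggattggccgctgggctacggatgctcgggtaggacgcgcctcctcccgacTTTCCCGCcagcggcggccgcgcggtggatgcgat

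Msh6 stood at 95.8 and 91.1 RPKM in primed KO, against 69.8 and 75.4 RPKM in primed WT (0.36 ± 0.09, limma adjusted p = 1.0e-04; 0.69 after quantile normalization). In naive libraries it stood at 233 and 239 RPKM in KO, against 193 and 222 RPKM in WT (0.19 ± 0.09, limma adjusted p = 0.149; 0.25 and called higher after quantile normalization). KO libraries thus lay above both WT libraries in each state. RefSeq promoter windows were matched for 30 of the 38 members, 78.9%, and a share of members with a motif is not given, since under 80% were matched.

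Among the damage signalling genes, 4 of 6 fell and 1 rose in primed KO libraries as deposited, beside 59.3% and 4.16% of all genes. After quantile normalization 1 was lower and 2 higher, beside 34.6% and 39.4%. Chek1, the kinase below ATR, stood at 15.7 and 13.8 RPKM in primed KO, against 24.3 and 30.4 RPKM in primed WT (-0.85 ± 0.15, limma adjusted p = 1.8e-07; -0.26 after quantile normalization). Chek2, the kinase below ATM, stood at 19.7 and 20.2 RPKM in primed KO, against 27.3 and 32.7 RPKM in primed WT (-0.56 ± 0.14, limma adjusted p = 1.2e-04; -0.02 after quantile normalization). Relative to other genes Chek1 was lower and Chek2 did not pass. With median centring Chek1 did not pass and Chek2 was at 0.14, beside a median of 0.16 for all genes. In naive cells Chek1 stood at 20.0 and 20.5 RPKM in KO, against 26.6 and 25.1 RPKM in WT (-0.33 ± 0.15, limma adjusted p = 0.151; -0.38 and called lower after quantile normalization), and Chek2 at 33.1 and 34.4 RPKM in KO, against 34.1 and 34.9 RPKM in WT.

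The apical kinases differed from each other. Atr, which responds to stalled forks, stood at 17.1 and 17.0 RPKM in naive KO, against 13.7 and 10.7 RPKM in naive WT (0.46 ± 0.19, limma adjusted p = 0.0968; 0.39 and called higher after quantile normalization). In primed libraries it stood at 10.1 and 9.60 RPKM in KO, against 14.9 and 19.5 RPKM in WT (-0.74 ± 0.19, limma adjusted p = 2.4e-04; -0.07 and not called after quantile normalization). KO libraries lay above WT in the naive state and below WT in the primed state, and the difference of -1.19 ± 0.27 passed under each normalization (limma adjusted p = 5.7e-05 as deposited). Atm, which responds to double-strand breaks, stood at 8.28 and 8.05 RPKM in primed KO, against 7.88 and 10.9 RPKM in primed WT, which overlap (-0.16 ± 0.19, limma adjusted p = 0.472), with 0.58 and a call of higher after quantile normalization. In naive libraries Atm was at 19.3 and 20.0 RPKM in KO, against 18.5 and 15.7 RPKM in WT (0.20 ± 0.19, limma adjusted p = 0.627).

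The last genes of this role act on the chromatin beside a break. Trp53bp1 (53BP1), which protects ends from resection, stood at 14.4 and 14.2 RPKM in primed KO, against 18.1 and 22.5 RPKM in primed WT (-0.47 ± 0.20, limma adjusted p = 0.028), but was called higher after quantile normalization (0.15), and the call as deposited ended without either naive KO library, either primed KO library or primed WT replicate 2 (limma adjusted p = 0.0671 to 0.19). H2afx, the histone H2A.X that the kinases phosphorylate, stood at 159 and 114 RPKM in primed KO, against 104 and 127 RPKM in primed WT. These groups overlap, and the call of higher (0.23 ± 0.09, limma adjusted p = 0.0159) ended without primed KO replicate 1 (-0.01) and without primed WT replicate 1 (0.08), while the change was 0.46 without primed KO replicate 2 and 0.37 without primed WT replicate 2. In naive libraries H2afx was at 162 and 147 RPKM in KO, against 107 and 174 RPKM in WT, and Trp53bp1 at 8.92 and 8.36 RPKM in KO, against 10.6 and 7.89 RPKM in WT, and both groups overlap.

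**Figure D3:**
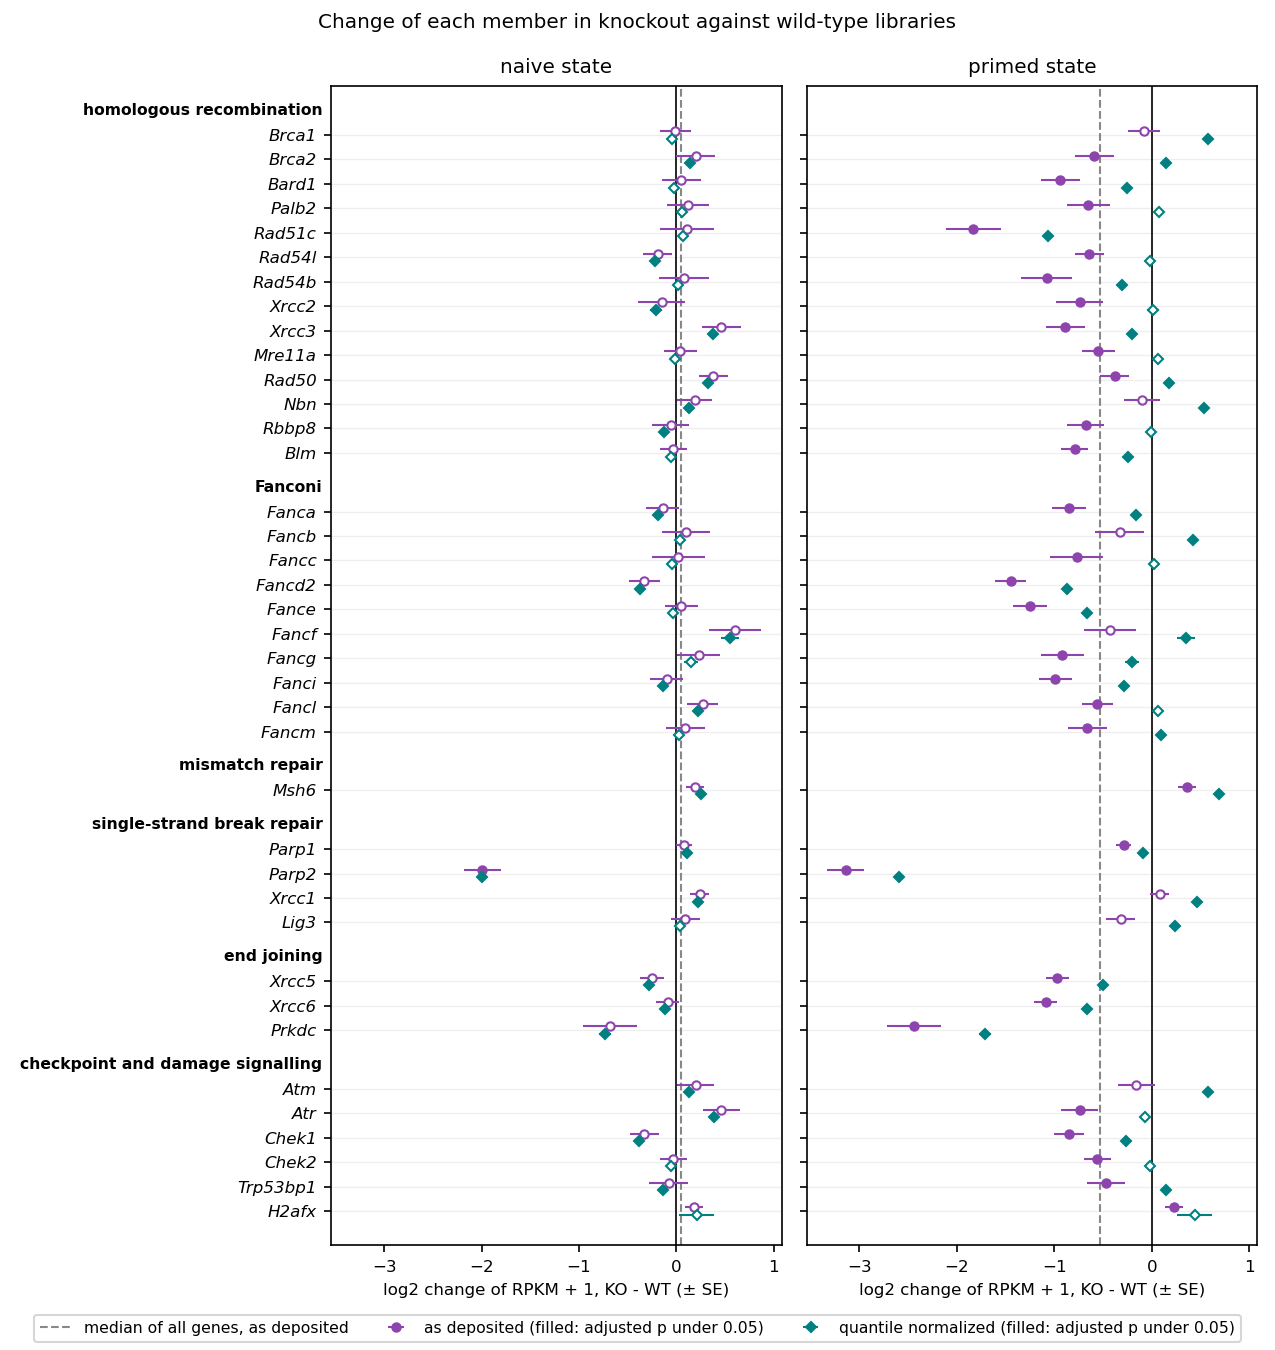
Change of each of the 38 members, KO minus WT in log2(RPKM + 1), with its standard error, in naive and primed cells, as deposited (circles) and after quantile normalization (diamonds), filled where the adjusted p was under 0.05; the dashed line marks the median of all genes tested as deposited. As deposited most primed changes lie left of 0 and 26 of 38 lie below the all-gene median of -0.53, while after quantile normalization they lie on both sides of 0.

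Over all 38 members, 1 was called lower and none higher in naive libraries, beside 5.85% and 6.08% of all genes (11.9% in either direction). Their naive changes ran from -1.99 to 0.60 with a median of 0.06, beside 0.05 for all genes. In primed libraries 29 were called lower and 2 higher, beside 59.3% and 4.16% of all genes (63.4% in either direction), with a median of -0.67, beside -0.53. After quantile normalization the primed counts were 16 lower and 12 higher, beside 34.6% and 39.4% (74.0% in either direction), with a median of -0.01, beside 0.03, and the naive counts were 12 lower and 11 higher, beside 27.5% and 31.9% (59.3% in either direction). KO libraries lay under both WT libraries for 32 members in primed cells, beside 76.4% of all genes, and for 9 in naive cells, beside 21.0%. They lay above both for 1 member in primed cells, Msh6, beside 6.77%, and for 11 in naive cells, beside 31.2%. After quantile normalization the members' counts and medians thus lay near those of all genes.

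As deposited and under median centring, quantile and loess normalization alike, 11 members were called lower in primed KO libraries, namely Bard1, Rad51c, Rad54b, Xrcc3, Fancd2, Fance, Fancg, Fanci, Parp2, Xrcc6 and Prkdc, and Msh6 was called higher. On the deposited values, the change of each of these 12 also kept its direction when any of the 8 libraries was left out. Leaving out a library was not tried on the normalized values. In naive libraries Parp2 alone was called lower under all 4 scalings, and under the 3 normalizations alone Fancd2, Prkdc and Chek1 were also lower and Xrcc3, Rad50, Fancf and Atr higher. As deposited, 9 members called lower in primed KO libraries were above 0 after quantile normalization, and 4 of them, Brca2, Rad50, Fancm and Trp53bp1, were then called higher. The shares of all genes that go with the counts in this paragraph were not computed, so these counts have no background beside them. In primed cells 59.3%, 23.6%, 34.6% and 36.5% of all genes were lower as deposited and with median centring, quantile and loess normalization in turn. The shares higher were 4.16%, 41.6%, 39.4% and 37.0%.

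The difference of the KO effect between the states was called for 26 members, all lower in primed cells, beside 47.4% of all genes lower and 2.16% higher (49.6% in either direction). After quantile normalization 17 were lower and 9 higher, beside 30.5% and 33.9% (64.4% in either direction). Under all 4 scalings 9 were called lower (the share of all genes was not computed), namely Rad51c, Rad54b, Xrcc3, Fancd2, Fance, Fancg, Parp2, Prkdc and Atr. Of these 9, the call of Rad54b as deposited ended without naive KO replicate 1 (limma adjusted p = 0.0702) or without either primed KO library (limma adjusted p = 0.0534 and 0.0675). Parp2 and Prkdc were the 2 members with the most negative changes in both states. Across the 38 members, the naive and primed changes, which share no library, had a Pearson correlation of 0.738 and a Spearman correlation of 0.50, and a Pearson correlation of 0.345 without Parp2 and Prkdc. Across all 13428 genes they were 0.343 and 0.327; genes are not independent replicates, and these values are a description.

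**Figure D4:**
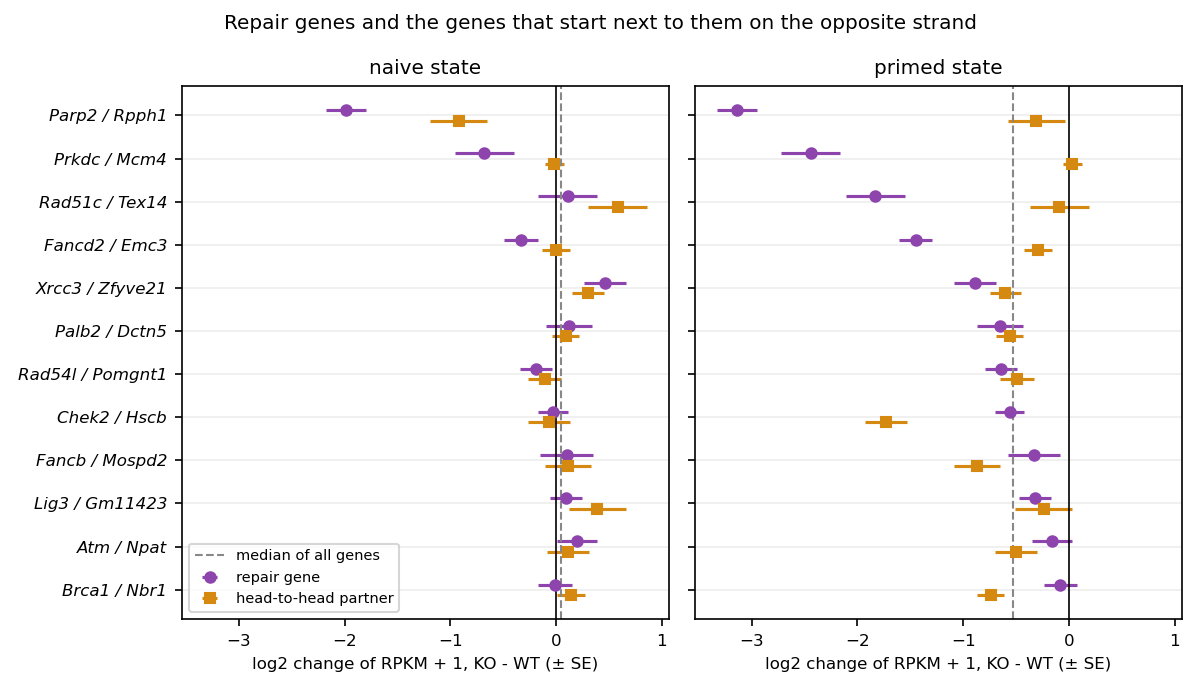
Change in naive (left) and primed (right) cells, KO minus WT in log2(RPKM + 1) with its standard error, of 12 members and of the gene that starts head to head with each within 1000 bases, with a dashed line at the median of all genes. In primed cells the changes of Parp2 and Prkdc lie far below those of their partners, and that of Chek2 lies above that of Hscb. The change of Rad51c also lies far below that of Tex14. However, Tex14 was at 0.0415 to 0.131 RPKM in primed libraries, where log2(RPKM + 1) holds any change near 0.

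Of the 38 members, 13 start within 1000 bases of a gene on the opposite strand that is in the files. Fancd2 lies beside Emc3, a membrane protein insertase subunit that changed by -0.29 ± 0.13 in primed cells as deposited (limma adjusted p = 0.0342), with 0.21 after quantile normalization, against -0.87 for Fancd2. Chek2 lies beside Hscb, a chaperone of iron-sulfur clusters, which stood at 4.24 and 4.78 RPKM in primed KO, against 14.4 and 20.6 RPKM in primed WT (-1.73 ± 0.20, limma adjusted p = 5.0e-16; -1.04 after quantile normalization). Brca1 lies beside Nbr1, an autophagy receptor gene, which changed by -0.74 ± 0.13 in primed cells (limma adjusted p = 2.0e-08; -0.25 after quantile normalization), where Brca1 was at -0.08. Thus a member and its head-to-head partner could differ widely in either direction. Exons of 16 members overlap another gene of the files in GENCODE M21, 14 of them on the opposite strand, among them Fancd2 with Fancd2os, Msh6 with Fbxo11, Xrcc6 with Desi1, Xrcc3 with Klc1, Fanci with Polg and Atr with 1700065D16Rik. The strand counted is not given in the labels or notes used here, so the reads of such pairs may not be separate and these values are uncertain. Across the 38 members, the change had a Spearman correlation of -0.257 with gene span in naive and -0.138 in primed cells, as a description.

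Other genes of DNA repair were listed by pathway and not by how they moved. Of 76 tested, 3 rose and 5 fell in naive KO libraries (3.95% and 6.58%, beside 6.08% and 5.85% of all genes), and 3 rose and 43 fell in primed KO libraries (3.95% and 56.6%, beside 4.16% and 59.3%). Their primed median was -0.54, beside -0.53 for all genes. After quantile normalization 36 were higher and 27 lower in primed cells (47.4% and 35.5%, beside 39.4% and 34.6%). The lower ones in primed cells were led by the glycosylase genes Neil2 (-2.04) and Mutyh (-1.52) and by Tdp1 (-1.50), which frees trapped topoisomerase I. Tdp1 was also lower in naive KO libraries (-0.51), along with Tipin, of the fork protection complex (-0.76), and Rpa3 (-0.40). The higher ones included Ercc5, the 3′ nuclease of nucleotide excision repair, at 42.7 and 40.3 RPKM in primed KO, against 18.0 and 21.7 RPKM in primed WT (1.03 ± 0.16) and at 19.3 and 19.2 RPKM in naive KO, against 12.3 and 9.91 RPKM in naive WT (0.75 ± 0.16), and Ddb1 (0.31 in primed and 0.35 in naive cells).

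Of 38 genes of replication and S phase, none rose and 9 fell in naive KO libraries, 23.7% beside 5.85% of all genes, and none rose and 24 fell in primed KO libraries, 63.2% beside 59.3% of all genes. Gins2, of the replicative helicase, was lower in both states (-0.89 in naive and -1.58 in primed cells). After quantile normalization 2 were higher and 23 lower in naive cells, beside 31.9% and 27.5% of all genes, and 20 higher and 14 lower in primed cells, beside 39.4% and 34.6%. Of 27 tested targets of p53, which the damage kinases activate, 21 rose and none fell in naive KO libraries. The shares of all genes there were 6.08% and 5.85%. In primed KO libraries 18 targets rose and 8 fell, beside 4.16% and 59.3% of all genes. After quantile normalization 24 targets were higher and 3 lower in naive cells, beside 31.9% and 27.5% of all genes. In primed cells 19 were then higher and 7 lower, beside 39.4% and 34.6%. Mdm2, the ubiquitin ligase of p53, was higher in both states (1.14 in naive and 2.02 in primed cells). The part of these lists in the changes of the repair genes was not tested.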

How the data were processed

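RNA was measured in 8 libraries, 2 per group, from total RNA depleted of ribosomal RNA; per the labels' protocols, ERCC spike-in RNA went into the lysates. The authors deposited 1 RPKM value per gene and library. Per the submitters' processing notes, which give no parameters, the build was mm9 and the tools included STAR 2.5.2b, cutadapt 1.9, affy and featureCounts 1.5.1. The deposited RPKM values hold no 0. In naive KO replicate 1, 968 values were each shared by 2 or more genes. The genes of all 968 were also tied in naive WT replicate 1, the only other naive library checked, and those of 501 in primed KO replicate 1. Primed KO replicate 1 held 1098 such values, and the genes of all 1098 were tied in primed WT replicate 1. From these ties the values were taken to have been scaled within each state. The files hold 0 spike-in rows, and depth is unknown.

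Values were taken as log2(RPKM + 1), which understates changes of low genes. A gene was tested if 2 or more libraries reached 1 RPKM (13428 genes), with limma 3.58.1 in R 4.3.3, on 4 group means with an intensity trend and Benjamini-Hochberg adjustment at 0.05. The prior degrees of freedom were infinite as deposited, beside 4 residual ones, so that variances come from the trend alone and large changes have very small p-values; after quantile normalization they were 3.71. The procedure was tested on simulated data. Alternatives tried were no filter, a filter of 5 RPKM, a pseudocount of 0.1, median centring, quantile and loess normalization, no trend, library weights, a replicate term, each state alone, and each library left out. Members and lists were chosen with earlier results of these data known. Per-library values are given for up to 4 called members per role whose groups do not overlap, by size of change, and for 13 members whatever their values; from other lists up to 4 called genes per direction may be named, and some are not reported here. Promoter windows came from RefSeq on GRCm38.p6 and exon overlaps from GENCODE M21, by gene symbol, and no coordinate of the authors' build was used. Python 3.11.15 and matplotlib 3.10.9 drew the figures.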

Additional observations from a re-analysis of the deposited data

Results flagged for a closer look

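The change in KO libraries differed between the states for 26 members by the test of the difference itself (limma on the deposited values, primed minus naive), and each was more negative in primed cells, as were 47.4% of all genes. In homologous recombination the differences were -1.95 for Rad51c, -1.35 for Xrcc3, -1.17 for Rad54b, -0.98 for Bard1, -0.79 for Brca2, -0.77 for Palb2, -0.76 for Rad50, -0.76 for Blm, -0.62 for Rbbp8 and -0.59 for Mre11a. Among the Fanconi genes they were -1.30 for Fance, -1.15 for Fancg, -1.12 for Fancd2, -1.02 for Fancf, -0.89 for Fanci, -0.82 for Fancl, -0.74 for Fancm and -0.71 for Fanca. In end joining they were -1.75 for Prkdc, -1.0 for Xrcc6 and -0.72 for Xrcc5, and in single-strand break repair -1.15 for Parp2 and -0.37 for Parp1. In damage signalling they were -1.19 for Atr, -0.53 for Chek2 and -0.51 for Chek1.

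All genes tested had a median difference of -0.59. After quantile normalization 8 of the 26 were above 0, namely Brca2, Palb2, Mre11a, Rbbp8, Fanca, Fancm, Chek1 and Chek2, and none of these 8 was called higher. The calls of 11 of the 26 ended when at least 1 library was left out, and the other 15 were called each time. Those 11 were Brca2, Palb2, Rad54b, Mre11a, Rbbp8, Fanca, Fancf, Fancm, Parp1, Chek1 and Chek2.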

How the results depend on the processing

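With median centring, quantile normalization and loess normalization in turn, the number of genes called in naive libraries was 4456, 7967 and 7719, against 1602 as deposited; it was 908 without a variance trend, 942 with the replicate number as a block and 2526 with each state fitted alone. Of the members, 4, 11 and 11 were then higher and 4, 12 and 12 lower in naive cells, 11, 12 and 13 higher and 11, 16 and 16 lower in primed cells, and 8, 9 and 10 higher and 9, 17 and 16 lower in the difference. The shares of all genes, in the same order, were 16.1%, 31.9% and 29.1% higher and 17.0%, 27.5% and 28.4% lower in naive cells. In primed cells they were 41.6%, 39.4% and 37.0% higher and 23.6%, 34.6% and 36.5% lower. For the difference they were 29.2%, 33.9% and 32.7% higher and 17.1%, 30.5% and 30.6% lower. Each state alone gave 4 members higher and 4 lower in naive cells, and the filter of 5 RPKM gave 2 members lower. Of the 2 members higher in primed cells, 1 was called with no filter, 1 with library weights, 1 with the block and 0 without a trend. The block left 17 members lower in the difference; same-numbered libraries had correlated deviations in naive (0.314) but not in primed cells (-0.0356), and with 2 libraries a group the numbers do not establish a pairing. Leaving out each library in turn gave 559 to 2950 genes called in naive cells, 5523 to 9547 in primed cells and 3446 to 8858 in the difference. It gave 0 to 6 members higher and 1 to 5 lower in naive cells, 1 to 3 higher and 19 to 32 lower in primed cells, and 0 to 1 higher and 15 to 34 lower in the difference.

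Some changes turned positive in primed cells, with median centring, quantile and loess normalization in turn: Brca1 at 0.61, 0.58 and 0.55, Atm at 0.53, 0.58 and 0.56, Rad50 at 0.31, 0.18 and 0.16, Trp53bp1 at 0.22, 0.15 and 0.12, Brca2 at 0.10, 0.15 and 0.16, Mre11a and Fancl both at 0.14, 0.06 and 0.02, Palb2 at 0.05, 0.07 and 0.07, and Fancm at 0.04, 0.09 and 0.10. With quantile and loess normalization Xrcc2 was at 0.01 and 0.02 and Fancc at 0.02 and 0.02. With median centring alone Parp1 was at 0.40, Chek2 at 0.14, Rad54l at 0.05 and Rbbp8 at 0.01. However, with median centring the median of all genes was itself 0.16, both in primed cells and in the difference. Of the 38 members, 26 lay below that median in primed cells and 25 in the difference. Median-centred changes between 0 and 0.16 were thus not above those of other genes. In the difference the same order gave 0.16, 0.07 and 0.06 for Mre11a, 0.13, 0.12 and 0.11 for Rbbp8, 0.04, 0.03 and 0.02 for Fanca, 0.01, 0.06 and 0.09 for Fancm, 0.24, 0.11 and 0.12 for Chek1 and 0.22, 0.04 and 0.05 for Chek2; quantile and loess gave 0.02 and 0.03 for Brca2 and 0.02 and 0.04 for Palb2, and median centring 0.38 for Parp1 and 0.03 for Xrcc5. With a library left out, the naive changes ran from -0.05 to 0.04 for Brca1, -0.27 to 0.12 for Trp53bp1 and -0.17 to 0.53 for H2afx, and the primed ones from -0.24 to 0.08 for Brca1, -0.37 to 0.04 for Atm and -0.01 to 0.46 for H2afx. The cause was not tested. A group left with 1 library took its spread from the remaining groups.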
